A study of Mus musculus with 36 samples.

Results

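The thrombospondin family comprises 5 genes in mouse, Thbs1, Thbs2, Thbs3, Thbs4 and Comp, the last encoding thrombospondin-5. The genes were taken by symbol from a table of 39017 genes, and all 5 were among the 22556 genes that passed a filter on low counts. The family was chosen by the measured difference in mean level between the surgical groups, because Thbs4 was among the transcripts furthest below sham. Those differences are therefore given as a description, and nothing is read from the members' calls in that comparison. RNA had been sequenced from cochleae, which hold the sensory hair cells of hearing, from adrenalectomized (ADX) and sham-operated mice of the strain CBA/Sca aged 12 weeks. Each status had 3 libraries at each of 6 circadian times, named CT04 to CT24 in steps of 4 h, which gave 18 ADX and 18 sham libraries. Adrenalectomy removes both the adrenal cortex and the medulla. Hormone replacement, the sex of the animals and how many animals or cochleae went into a library are not described in the labels. Deposited counts per library summed to between 20351081 and 28947793 in ADX and between 18999408 and 28995197 in sham.

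Thrombospondins are secreted glycoproteins of the extracellular matrix that bind calcium, collagens, integrins and other receptors. Thbs1 and Thbs2 encode trimers whose type 1 repeats bind the receptor CD36 and, for thrombospondin-1, release active TGF-beta from its latent complex. Thbs3, Thbs4 and Comp encode pentamers that lack those repeats and are typical of skeletal and connective tissue. Thrombospondin-1 is also stored in platelets, thrombospondin-4 is abundant in tendon and muscle, and Comp is a structural protein of cartilage and tendon. In mice, Thbs1 and Thbs2 have been linked to the afferent synapses of the inner ear.

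The 5 genes lie on separate chromosomes of the mouse build GRCm38. Thbs1 (ENSMUSG00000040152) spans chr2:118111876-118127133 on the plus strand, and Thbs2 (ENSMUSG00000023885) spans chr17:14665500-14694235 on the minus strand. Thbs3 (ENSMUSG00000028047) spans chr3:89215180-89226837 on the plus strand, Thbs4 (ENSMUSG00000021702) chr13:92751590-92794818 on the minus strand and Comp (ENSMUSG00000031849) chr8:70373558-70382066 on the plus strand. Exons of Thbs3 overlap exons of Mtx1 on the opposite strand, which had between 519 and 902 counts per library, and exons of Thbs1 overlap the antisense gene Gm29233, which has no row of its own here. The labels do not say whether the counting used the strand, so reads in these overlaps cannot be assigned with certainty.

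The coding sequences fall into the groups known from the proteins. Over aligned bases, Thbs1 and Thbs2 were 66.1% identical, and identity was 66.4% between Thbs3 and Thbs4, 67.5% between Thbs3 and Comp and 68.0% between Thbs4 and Comp. Between a trimer gene and a pentamer gene it lay between 58.2 and 60.5%. The closest pair, Thbs4 and Comp, differed in opposite directions between ADX and sham, so the 90-base coding window where they are most alike is shown. It covers coding bases 2380 to 2469 of Thbs4 and 1771 to 1860 of Comp, counted from 1 at the first base of the start codon, in the GENCODE M21 transcripts. Capitals mark the 11 bases that differ, and the other 79 are identical.
Thbs4: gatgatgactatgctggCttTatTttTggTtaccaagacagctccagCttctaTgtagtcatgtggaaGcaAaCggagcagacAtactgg
Comp: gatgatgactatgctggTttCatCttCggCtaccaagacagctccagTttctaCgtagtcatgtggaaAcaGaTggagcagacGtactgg
The longest stretch shared exactly by these 2 genes was 26 bases, and no pair of the family shared a longer one.

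Thbs1 was by far the most abundant member. Per length of the gene, it averaged 123 ± 11.9 RPKM in ADX libraries and 147 ± 20.9 RPKM in sham libraries (SD, n = 18 each), and it held 83.7% of the family's CPM, which are counts scaled to the library total, in ADX and 85.3% in sham. Thbs4 averaged 7.996 ± 1.76 RPKM in ADX and 12.0 ± 4.38 RPKM in sham. Comp averaged 7.03 ± 0.752 RPKM in ADX and 6.04 ± 0.854 RPKM in sham. These levels place Thbs4 above Comp on average in both groups, but in ADX the difference was smaller than the spread between libraries. Thbs2 averaged 6.67 ± 0.903 RPKM in ADX and 6.41 ± 0.763 RPKM in sham, and Thbs3 averaged 4.73 ± 0.558 RPKM in ADX and 5.04 ± 0.720 RPKM in sham. These values rest on the authors' gene length column, which equalled the mean length of the annotated transcripts for Thbs1, Thbs3 and Thbs4 but not for Thbs2 and Comp. With the union of annotated exons as the length, Thbs4 came to 4.41 RPKM in ADX and 6.64 in sham, Comp to 5.74 in ADX and 4.94 in sham, and Thbs2 to 5.64 in ADX and 5.42 in sham. The order of these 3 genes thus depended on the length used, while Thbs1 stayed highest and Thbs3 lowest with each length tried.

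The libraries carried cochlear transcripts, with all 10 hair cell, 7 stria vascularis, 8 spiral ligament and supporting cell and 8 spiral ganglion markers above 0 in every library. Markers of bone, marrow, muscle and pituitary were detected as well. Skeletal muscle markers summed to between 43.7 and 925 CPM in ADX and between 45.1 and 87.3 CPM in sham, with the 3 highest marker scores in ADX CT12 replicate 1, ADX CT16 replicate 2 and ADX CT20 replicate 3. The pituitary transcript Gh exceeded 50 CPM in 5 libraries, ADX CT24 replicates 1 and 2, sham CT08 replicates 2 and 3 and sham CT16 replicate 3. Sham CT20 replicates 2 and 3 stood apart in osteoblast markers, as described with Thbs4.

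Thbs4 was lower in ADX than in sham at each of the 6 times. Its ADX libraries had a lowest value of 7.79, a median of 14.4 and a highest of 21.02 CPM, against a lowest of 15.96, a median of 18.9 and a highest of 43.8 CPM in sham. In ADX, 13 of 18 libraries lay below the lowest sham library, and 6 sham libraries lay above the highest ADX library. The mean was 14.5 ± 3.199 CPM in ADX and 21.8 ± 7.94 CPM in sham (SD over 18 libraries each). The fitted log2 fold change of ADX over sham was -0.55 ± 0.08 (SE), a difference of -31.9%. In bulk RNA of a whole organ, fewer cells of a type and less RNA per cell cannot be told apart.

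At CT04, Thbs4 had 7.79, 11.8 and 12.35 CPM in ADX, against 15.96, 18.4 and 17.2 CPM in sham. At CT08 it had 12.8, 16.03 and 13.6 CPM in ADX, against 22.3, 17.6 and 16.7 CPM in sham. At CT12 it had 17.5, 15.16 and 14.4 CPM in ADX, against 17.2, 22.4 and 19.4 CPM in sham. The groups did not overlap at CT04 and CT08, and at CT12 a single ADX library lay just above the lowest sham one. At CT16 the values were 15.08, 14.5 and 16.5 CPM in ADX, against 17.4, 17.5 and 18.3 CPM in sham. At CT20 they were 21.02, 10.3 and 20.25 CPM in ADX, against 23.5, 41.6 and 43.8 CPM in sham. At CT24 they were 13.03, 13.6 and 15.295 CPM in ADX, against 20.4, 20.9 and 22.3 CPM in sham. All 3 ADX libraries thus lay below all 3 sham libraries at 5 of the 6 times. Among the 22556 genes, the share with all ADX libraries below all sham libraries was 8.46% at CT04, 3.93% at CT08, 5.34% at CT12, 6.49% at CT16, 4.13% at CT20 and 6.01% at CT24. The log2 fold change was -0.68 ± 0.21 at CT04, -0.41 ± 0.21 at CT08, -0.33 ± 0.20 at CT12, -0.21 ± 0.20 at CT16, -1.09 ± 0.20 at CT20 and -0.60 ± 0.20 at CT24. It was widest at CT20 and narrowest at CT16. Whether the ADX effect changed over time was tested with edgeR's quasi-likelihood F-test, adjusted over all genes by Benjamini and Hochberg's method. Thbs4 did not pass (unadjusted p = 0.0547, adjusted p = 0.969). No gene passed that test (0 of 22556, 0%), 1089 had an unadjusted p under 0.05, and DESeq2 called 4 and limma-voom 0.

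**Figure D1:**
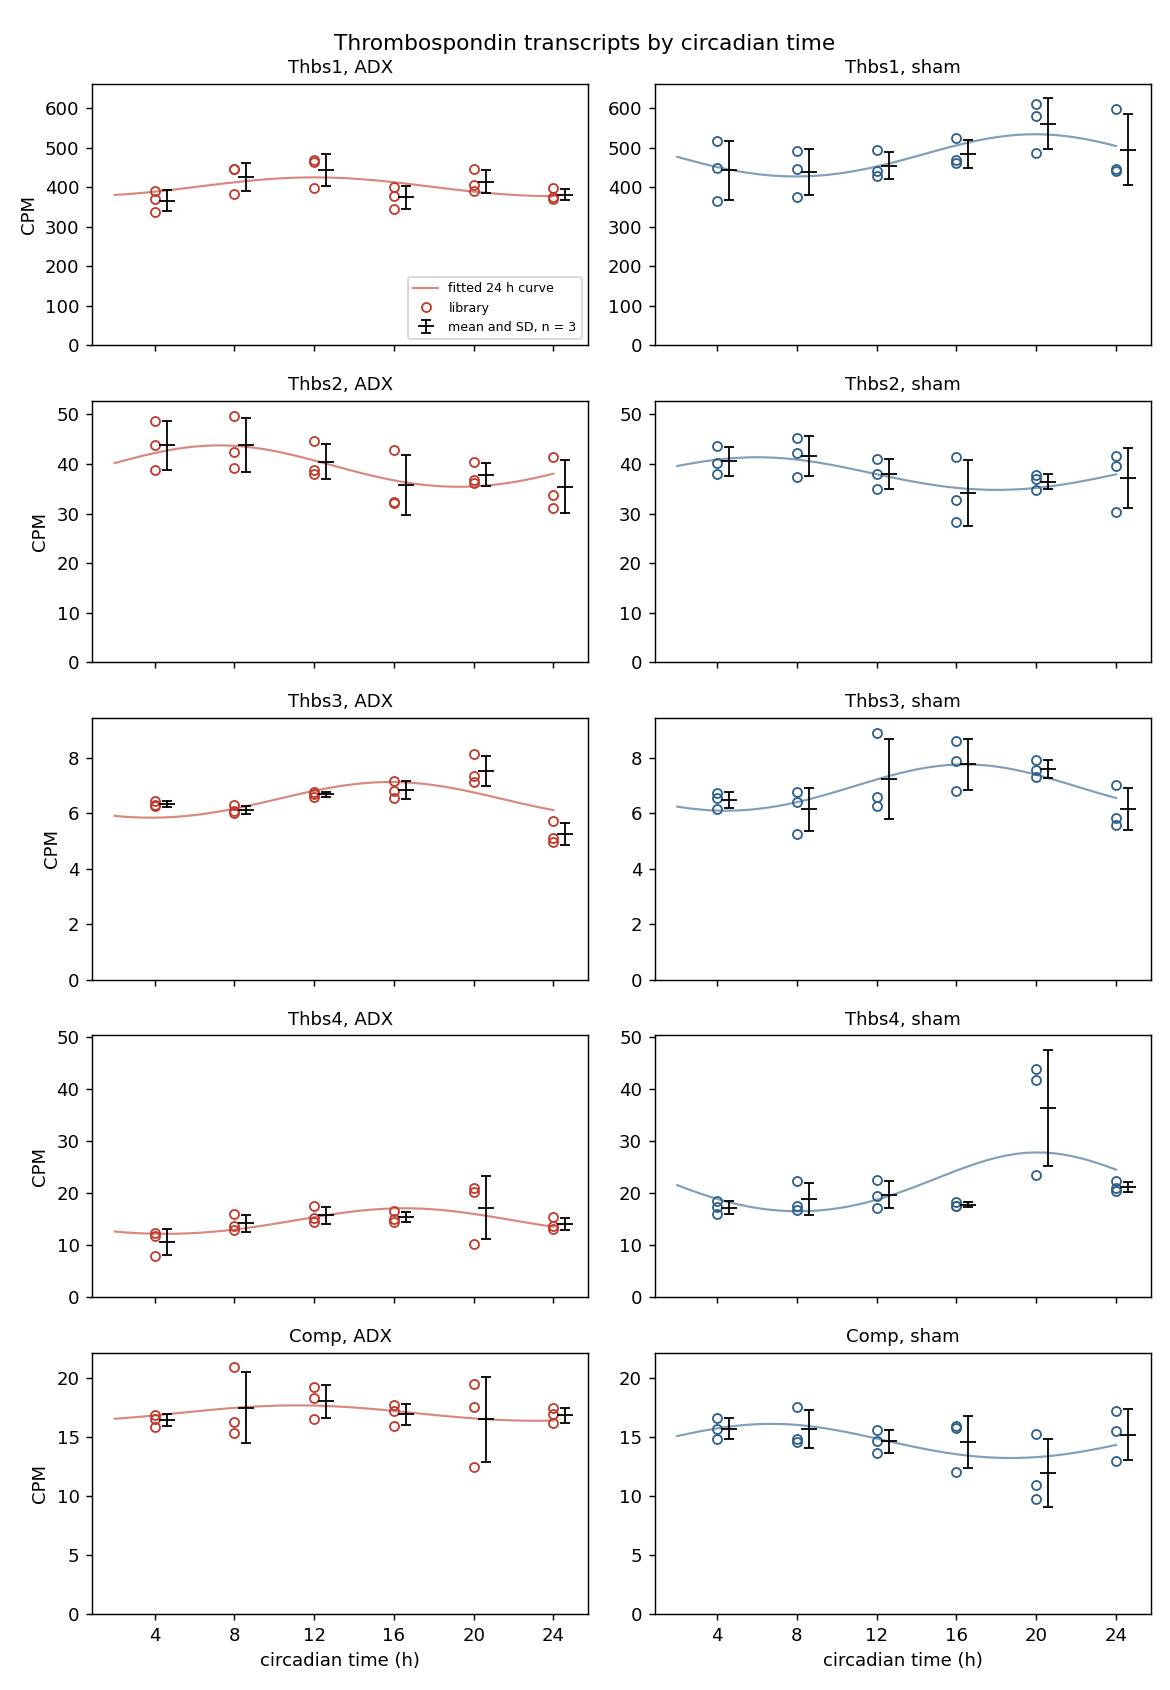
CPM of each gene (y axis, linear from 0) against circadian time in hours (x axis), ADX on the left and sham on the right; open circles are libraries, black marks the mean and SD of 3 libraries, and lines the fitted 24 h curves. The Thbs4 libraries of sham at CT20 reach 41.6 and 43.8 CPM, and Thbs1 in ADX stays at or under 470 CPM while sham reaches 611 CPM.

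Thbs1 was also lower in ADX at each of the 6 times, by a smaller margin. ADX libraries had a lowest value of 338, a median of 393 and a highest of 470 CPM, against a lowest of 365, a median of 464 and a highest of 611 CPM in sham. In ADX, 17 of 18 libraries lay below the sham median, and 8 sham libraries exceeded every ADX library. The means were 400 ± 38.9 CPM in ADX and 479 ± 68.0 CPM in sham (SD over 18 libraries each), and the log2 fold change was -0.26 ± 0.05. The groups did not overlap at CT16, CT20 and CT24. At CT16 Thbs1 had 344, 378 and 400 CPM in ADX, against 461, 467 and 524 CPM in sham. At CT20 it had 406, 447 and 389 CPM in ADX, against 487, 611 and 581 CPM in sham. At CT24 it had 369, 376 and 397 CPM in ADX, against 445, 597 and 441 CPM in sham. The log2 fold changes at these 3 times were -0.37 ± 0.12, -0.43 ± 0.12 and -0.38 ± 0.12, while at CT08 and CT12 they were -0.04 ± 0.12 each and the libraries overlapped. At CT04 the value was -0.27 ± 0.12, and the libraries overlapped as well.

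Comp differed in the other direction. Its ADX libraries had a lowest value of 12.5, a median of 16.9 and a highest of 20.9 CPM, against a lowest of 9.77, a median of 15.07 and a highest of 17.5 CPM in sham. Only 1 ADX library lay below the sham median, but the ranges overlapped at every time except CT12. There Comp had 18.3, 16.5 and 19.24 CPM in ADX, against 14.7, 15.6 and 13.7 CPM in sham, with no overlap. The share of all genes with their ADX libraries above their sham libraries was 8.07% at CT04, 4.45% at CT08, 5.09% at CT12, 7.1% at CT16, 5.12% at CT20 and 6.03% at CT24. The mean was 17.0 ± 1.82 CPM in ADX and 14.6 ± 2.07 CPM in sham, a log2 fold change of 0.22 ± 0.06 that lay above 0 at all 6 times. Because Thbs4 was lower and Comp higher, the ratio of Thbs4 to Comp in CPM ranged from 0.492 to 1.195 in ADX, with a median of 0.837, and from 0.961 to 4.26 in sham, with a median of 1.25.

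Thbs2 and Thbs3 differed little in mean level. Thbs2 ranged from 31.1 to 49.7 CPM in ADX and from 28.3 to 45.3 CPM in sham, and averaged 39.5 ± 5.35 CPM in ADX and 38.0 ± 4.52 CPM in sham, a log2 fold change of 0.05 ± 0.05. Thbs3 ranged from 4.95 to 8.12 CPM in ADX and from 5.26 to 8.89 CPM in sham, and averaged 6.46 ± 0.763 CPM in ADX and 6.89 ± 0.983 CPM in sham, a log2 fold change of -0.10 ± 0.05 that was below 0 at all 6 times. For both genes, ADX and sham libraries overlapped at all 6 times. Of all genes, 3.48% had a value below 0 at each of the 6 times and 4.14% a value above 0 at each. In the comparison over the mean of the 6 times, edgeR called 162 genes, or 0.718% of those tested, 84 lower (0.372%) and 78 higher in ADX (0.346%). Of the family, 2 of 5 were among them, Thbs1 and Thbs4, both lower, which follows in part from the choice of the family and carries no further weight.

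**Figure D2:**
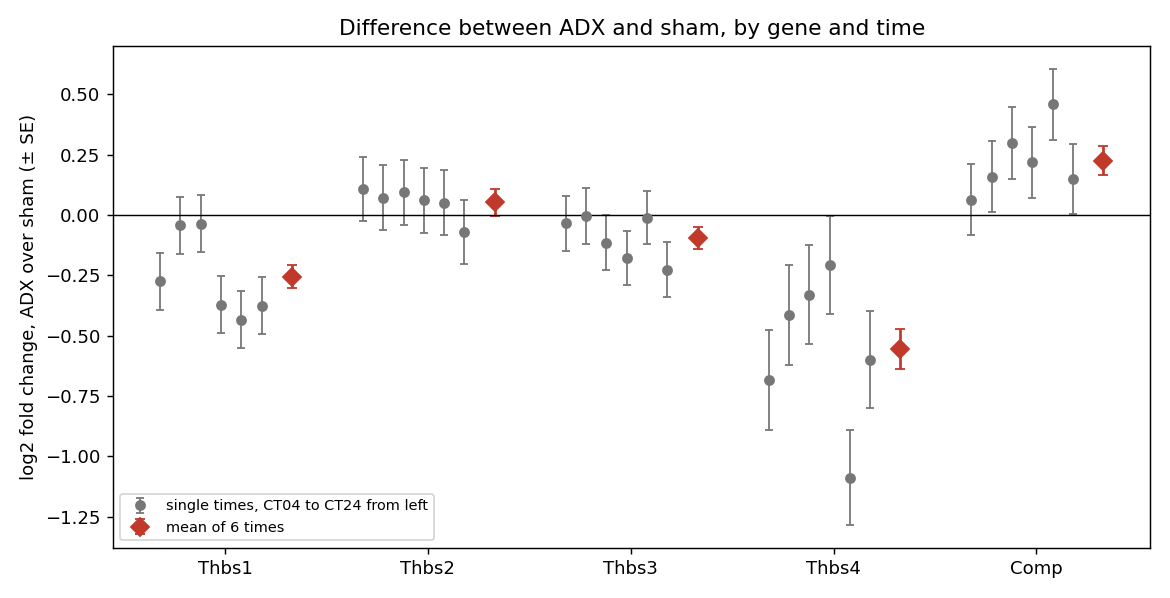
Log2 fold change of ADX over sham with its SE (y axis) for each gene (x axis); grey points are CT04 to CT24 from left to right and red diamonds the mean of the 6 times. Thbs4 and Thbs1 lie below 0 at every time, with means of -0.55 and -0.26, and Comp lies above 0 at every time, with a mean of 0.22.

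The highest Thbs4 values came from sham CT20 replicates 2 and 3, with 41.6 and 43.8 CPM, and these libraries also stood apart in bone transcripts. Their osteoblast and osteocyte marker score, the mean of centred log2 CPM over 12 genes, was 0.85 and 0.69, while no other library exceeded 0.23. Comp was lowest in the same libraries, at 9.77 and 10.9 CPM, and Thbs1 reached 611 and 581 CPM there. Osteoblast markers were also lower in ADX as a group. All 12 had a log2 fold change below 0 with a median of -0.22, against a median of 0.00 over all genes of which 49.3% were below 0. Their summed level was between 951 and 1530 CPM in ADX and between 1176 and 2326 CPM in sham, and none was at 0 in any library. Of the 12, 3 fell in edgeR's test, against 0.372% of all genes, Ifitm5 by 0.52 (adjusted p = 0.0429), Ibsp, which encodes bone sialoprotein, by 0.39 (adjusted p = 0.0353), and Dmp1, an osteocyte matrix gene, by 0.24 (adjusted p = 0.0343), on the log2 scale. Without sham CT20 replicates 2 and 3, the log2 fold change of Thbs4 was -0.45, that of Thbs1 -0.22 and that of Comp 0.17, and edgeR called 6 genes in place of 162. Neither Thbs1 nor any of the 3 bone genes was called in that fit, which leaves replicate 1 alone at sham CT20. Muscle markers had a median log2 fold change of 1.29, with 14 of 15 above 0 and none called. Without the 3 libraries of highest muscle score, Thbs4 had a log2 fold change of -0.59. The part of bone transcripts in the Thbs4 difference was not tested.

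**Figure D3:**
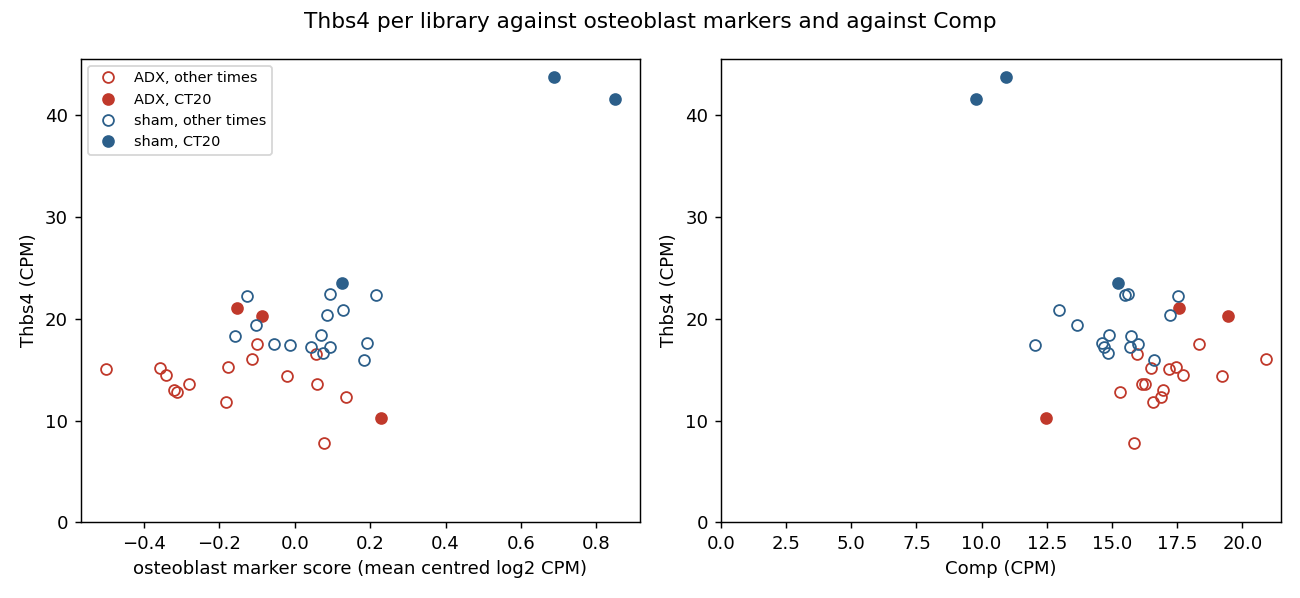
Thbs4 in CPM (y axis) for all 36 libraries against the osteoblast marker score (left, mean centred log2 CPM) and against Comp in CPM (right); red is ADX, blue is sham and filled circles are CT20. Sham CT20 replicates 2 and 3 lie at scores of 0.85 and 0.69 and at Comp values of 9.77 and 10.9 CPM, apart from the other libraries.

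Blood cell markers are given beside Thbs1 and Comp, since platelets store thrombospondin-1. Of all genes, 49.3% had a log2 fold change below 0. Platelet markers, 8 genes including Pf4 and Itga2b, all had log2 fold changes below 0, with a median of -0.19 and none called, and summed to between 654 and 1086 CPM in ADX and between 699 and 1329 CPM in sham. B lymphocyte markers all had values above 0, with a median of 0.31, and summed to between 1264 and 2427 CPM in ADX and between 833 and 1704 CPM in sham. Of those 8, Ighm rose in edgeR's test (log2 fold change 0.33, adjusted p = 0.0489), against 0.346% of all genes. Neutrophil markers lay below 0 in 11 of 11 cases, with a median of -0.19. Of the 11, Retnlg (-0.25, adjusted p = 0.0425) and Mmp8 (-0.25, adjusted p = 0.0490) fell in edgeR's test, against 0.372% of all genes. Erythroid markers lay below 0 in 7 of 7 cases, with a median of -0.17 and none called. None of these 3 was called without sham CT20 replicates 2 and 3 (adjusted p = 0.161 for Ighm, 0.0516 for Retnlg and 0.132 for Mmp8). No marker in these 4 lists was at 0 in any library, and their part in the Thbs1 and Comp differences was not tested.

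The rule that chose the family did not use the time course, and the 24 h course of each gene was tested in ADX, in sham and in both together. For Thbs4 this is not independent of that choice, because sham CT20 replicates 2 and 3 raise both its sham mean and its fitted rhythm. The size of a rhythm is given as the fitted peak-to-trough on the log2 scale, with its SE. In ADX, none of the 5 passed in edgeR's test (9.4% of all genes did, and the median peak-to-trough was 0.18). At an unadjusted p under 0.05 there were 2, Thbs2 and Thbs3, beside 5734 of all 22556 genes. DESeq2 and limma-voom called none of the 5. Thbs4 had a peak-to-trough of 0.49 ± 0.21 with a peak at 16.5 h (adjusted p = 0.280), and Thbs2 had 0.31 ± 0.10 with a peak at 7.25 h (adjusted p = 0.121). Thbs3 had 0.29 ± 0.11 with a peak at 15.8 h (adjusted p = 0.165). For Thbs1 the fitted value was 0.17 ± 0.10 (adjusted p = 0.460) and for Comp 0.11 ± 0.12 (adjusted p = 0.794).

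In sham, Thbs4 was the only member to pass, with a peak-to-trough of 0.75 ± 0.21 and a peak at 20.07 ± 1.04 h (edgeR adjusted p = 0.0219). Across all genes 16.08% passed in sham, and the median peak-to-trough was 0.22. Sham Thbs1 peaked at nearly the same time, 19.9 ± 1.17 h, with a peak-to-trough of 0.32 ± 0.10 that did not pass (adjusted p = 0.0534). Thbs3 had 0.35 ± 0.11 with a peak at 16.4 ± 1.17 h (adjusted p = 0.0511). Thbs2 had 0.25 ± 0.10 and Comp 0.29 ± 0.12, with peaks at 6.02 and 6.72 h and adjusted p-values of 0.202 and 0.199.

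The Thbs4 result in sham rested on the CT20 libraries. The adjusted p was 0.0947 without sham CT20 replicate 2 (peak-to-trough 0.57) and 0.124 without replicate 3 (0.54), and Thbs4 passed in the other 34 of 36 fits that left out a library. Without both, the peak-to-trough was 0.19 (adjusted p = 0.692).

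An edgeR test for differences among the 6 times that assumes no cosine shape passed for Thbs3 in ADX (adjusted p = 0.0360, 9.68% of all genes passing). It also passed for Thbs4 in sham (adjusted p = 0.000855, 16.19% of all genes). Sham Thbs4 averaged 36.3 CPM at CT20 and between 17.2 and 21.2 CPM at the other times. The test was not repeated without sham CT20 replicates 2 and 3. Thbs3 in ADX had 8.12, 7.34 and 7.105 CPM at CT20 and 5.71, 5.09 and 4.95 CPM at CT24, the times of its highest and lowest mean. In sham the values were 7.55, 7.29 and 7.92 CPM at CT20 and 5.84, 5.59 and 7.004 CPM at CT24.

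With both groups together, 3 of 5 passed for a shared 24 h rhythm, against 32.5% of all genes. Thbs3 had a shared peak-to-trough of 0.32 at 16.15 h (edgeR adjusted p = 0.00484), Thbs4 of 0.56 at 18.7 h (adjusted p = 0.0117) and Thbs2 of 0.27 at 6.69 h (adjusted p = 0.0141). Thbs2 thus peaked near the fitted low points of Thbs3 and Thbs4. Thbs1 (adjusted p = 0.251) and Comp (adjusted p = 0.235) did not pass. Thbs2, Thbs3 and Thbs4 each passed in all 36 fits that left out a library, but without sham CT20 replicates 2 and 3 together Thbs4 had 0.30 (adjusted p = 0.114). The difference in rhythm between ADX and sham passed for no gene (0 of 22556, 0%), with 805 at an unadjusted p under 0.05, 1 called by DESeq2 and 0 by limma-voom. The adjusted p was 0.9997 for each of the 5 members, and the unadjusted p was smallest for Thbs1, at 0.0133, and 0.133 for Thbs4. A difference in rhythm between ADX, where Thbs4 did not pass, and sham, where it did, is therefore not shown.

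**Figure D4:**
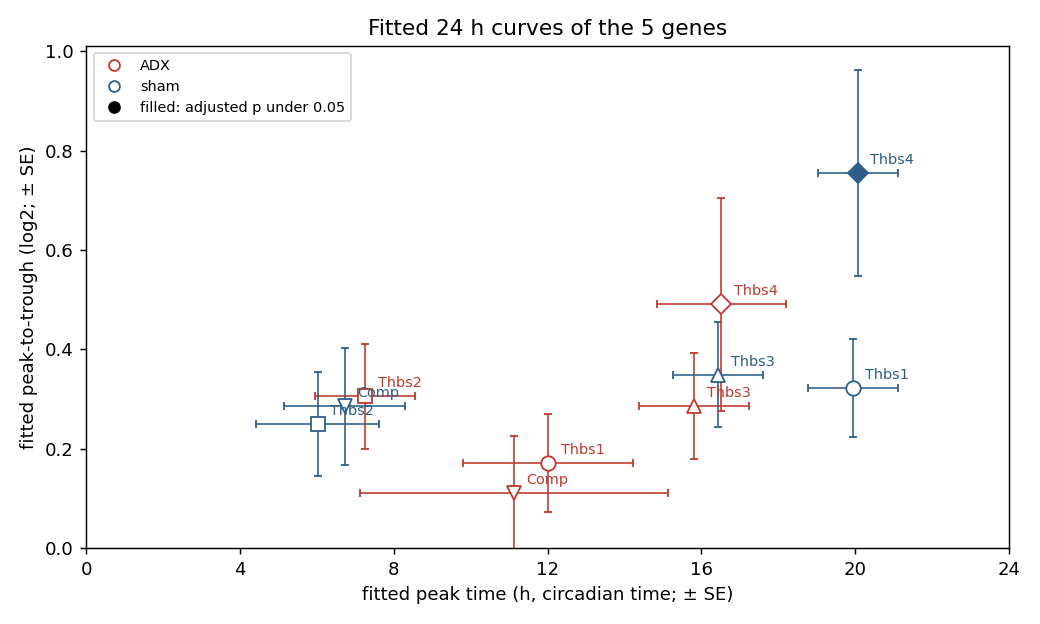
Fitted peak-to-trough on the log2 scale (y axis) against fitted peak time in hours (x axis), each with its SE, for the 5 genes in ADX (red) and sham (blue); a filled symbol has an adjusted p under 0.05. Thbs4 in sham, at 0.75 and 20.07 h, is the filled point, and Thbs2 lies near 6 to 7 h in both groups.

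The 3 members that passed for a shared rhythm were those with a promoter in the RefSeq table used here, and the 250 bases before each RefSeq start, on build GRCm38.p6, are shown to set their promoters side by side. Thbs2 is chr17:14694263-14694512 on the minus strand, Thbs3 is chr3:89214930-89215179 on the plus strand and Thbs4 is chr13:92794819-92795068 on the minus strand. Each is printed 5′ to 3′ on the strand of the gene. Capitals mark matches on either strand to the CCAAT box (CCAAT), the Sp1 box (GGGCGG) and the TATA box (TATAAA).
Thbs2: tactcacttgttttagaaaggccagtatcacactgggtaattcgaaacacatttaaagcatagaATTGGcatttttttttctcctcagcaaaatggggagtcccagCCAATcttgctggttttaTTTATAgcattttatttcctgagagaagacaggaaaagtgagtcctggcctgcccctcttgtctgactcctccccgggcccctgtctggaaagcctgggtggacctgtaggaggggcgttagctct
Thbs3: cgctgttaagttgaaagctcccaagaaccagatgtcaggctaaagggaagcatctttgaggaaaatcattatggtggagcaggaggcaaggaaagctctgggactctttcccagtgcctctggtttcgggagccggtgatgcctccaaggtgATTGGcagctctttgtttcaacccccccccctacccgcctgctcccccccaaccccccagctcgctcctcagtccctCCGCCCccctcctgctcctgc
Thbs4: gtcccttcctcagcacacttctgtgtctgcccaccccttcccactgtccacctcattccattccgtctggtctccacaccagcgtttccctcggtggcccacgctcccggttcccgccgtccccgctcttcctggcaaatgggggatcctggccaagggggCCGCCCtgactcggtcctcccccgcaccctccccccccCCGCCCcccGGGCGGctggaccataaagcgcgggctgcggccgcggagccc
The promoters differed in composition and in these motifs. Thbs4 was richest in GC, at 70.8%, and held 3 Sp1 boxes, with starts at -89, -51 and -42 relative to the gene start, and no CCAAT or TATA box. Thbs3, at 58.8% GC, held 1 CCAAT box at -98 and 1 Sp1 box at -21. Thbs2, at 46.8% GC, held 2 CCAAT boxes at -186 and -144 and 1 TATA box at -126. Of 32851 promoters of the same length, 32.74% held a Sp1 box, 33.85% a CCAAT box and 12.37% a TATA box. The full glucocorticoid response element (inverted copies of AGAACA, 3 bases apart) had 0 matches in the 3 windows and was held by 0.00913% of all promoters. Its half-site AGAACA, the circadian E-box CACGTG and the D-box TTATGTAA also had 0 matches, and 16.08, 6.02 and 0.819% of all promoters held them.

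No pair of members passed a test of varying together across libraries once the group means were removed. Over the 10 pairs and 36 libraries, Pearson's r of the deviations lay between -0.26 and 0.19, and the lowest permutation p after Benjamini-Hochberg adjustment was 0.697. Within ADX, Thbs4 and Comp had r = 0.74 and Spearman's rho = 0.63 over 18 libraries (permutation p = 0.0289 and 0.0446, adjusted over 20 relations 0.578 and 0.446), and r was 0.53 without ADX CT20 replicates 1 and 2. Within sham the same pair had r = -0.42 (permutation p = 0.424, adjusted 0.940), and 0.03 without sham CT20 replicates 1 and 3. No relation passed the adjustment.

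The genes most like each member in log2 CPM over the 36 libraries were ranked among 17710 genes, by Pearson's r as a description, which reads status, time and tissue makeup together. For Thbs4 they were Gsn, which encodes the actin-severing gelsolin (r = 0.77), Slc45a3, the integrin gene Itga10, the lysosomal peptidase gene Tpp1 and the receptor gene Lrp4, the last at 0.74. For Thbs1 they were Gucy1a1, a subunit of the nitric oxide receptor guanylate cyclase (r = 0.83), followed at 0.75 by Lims1, Ldha, Galnt2 and Gm20388. For Thbs2 they were Itm2a (r = 0.82), Ssc5d, Ranbp3l, Olfml2a and Egflam, the last at 0.80. For Thbs3 they were Dmpk (r = 0.79), Mir207, Zgpat, Dvl1 and Crebbp, the last at 0.74. All 5 genes nearest to Comp belonged to antibody-producing cells. They were the immunoglobulin heavy chain genes Igha (r = 0.82), Ighg3, Ighe and Ighg2c and the joining chain gene Jchain (r = 0.78), with log2 fold changes between 0.36 and 0.46. Reads of immunoglobulin genes may have been split between near-identical copies. Within each status alone, r between Comp and Igha was 0.74 in ADX and 0.81 in sham.

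All 15 listed receptor genes of the family were measured. Of these, which include the integrin subunits, Cd36, Cd47, the endocytic receptor Lrp1 and the calcium channel subunit Cacna2d1, none passed in the mean comparison, and their median log2 fold change was -0.03. Nearest was Itgb1, the shared beta-1 integrin subunit, with 352 CPM in ADX and 369 CPM in sham (log2 fold change -0.07, adjusted p = 0.0509). A shared rhythm was found for 5 of the 15, against 32.5% of all genes. Calr, whose product calreticulin takes part in thrombospondin signalling at the cell surface, had a peak-to-trough of 0.76 at 19.6 h (adjusted p = 6.64e-11), and Itgb1 had 0.14 at 21.4 h. Itgav, Cd47 and Cacna2d1 had values between 0.13 and 0.22.

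Of 14 genes of the TGF-beta axis, none passed in the mean comparison, with a median of -0.01, and 3 had a shared rhythm, against 32.5% of all genes. Without sham CT20 replicates 2 and 3 there were 5, against 31.5% of all genes. Of those reported, Ccn2, a target of TGF-beta, had a shared peak-to-trough of 0.54 at 13.3 h, and Skil, a repressor of the pathway, had 0.21 at 18.8 h.

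Among 14 fibrillar collagen genes and partners, 1 fell in ADX, Col5a1, with 78.3 CPM in ADX and 88.7 CPM in sham (log2 fold change -0.17, adjusted p = 0.0429). It was not called without sham CT20 replicates 2 and 3 (adjusted p = 0.182). The median of the list was -0.01, and 0.372% of all genes fell. A rhythm passed for 1 of the 14 in ADX (9.4% of all genes), 9 in sham (16.08%) and 8 in both together (32.5%), and a difference in rhythm for 0. The mean centred log2 CPM of the list was highest in sham CT20 replicates 2 and 3 among the 36 libraries, at 0.44 and 0.36. Without these libraries 5 of the 14 passed in sham, against 15.7% of all genes, and 8 in both together, against 31.5%. In sham, Col1a1 had a peak-to-trough of 0.95 (adjusted p = 0.0147, and 0.145 without these libraries) and Col5a1 of 0.53. Of 14 measured cartilage genes, 0 passed in the mean comparison and 4 had a shared rhythm (32.5% of all genes), Acan, Col9a1, Col9a2 and Col9a3. Col9a1, a collagen that binds Comp, had 34.4 CPM in ADX and 33.2 CPM in sham and a shared peak-to-trough of 0.64 at 5.90 h (adjusted p = 0.0005). Of 6 tendon and ligament markers, 0 passed in the mean comparison and 1 had a shared rhythm, against 32.5% of all genes. It was the transcription factor gene Scx, with a peak at 6.10 h.

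Of 25 listed genes for other proteins with thrombospondin type 1 repeats, 24 were measured. Of these, 1 fell in ADX, Adamtsl2, which encodes a microfibril-associated protein, with 5.45 CPM in ADX and 7.06 CPM in sham (log2 fold change -0.36, adjusted p = 0.0344), and the median was 0.01. It was not called without sham CT20 replicates 2 and 3 (adjusted p = 0.146). A shared rhythm was found for 12 of the 24, against 32.5% of all genes. Spon2, which encodes a secreted matrix protein, had the widest, with a peak-to-trough of 1.83 at 1.27 h (adjusted p = 2.22e-15), and it passed in ADX (1.65) and in sham (2.03). None of 16 other matricellular genes passed in the mean comparison, with a median of -0.02, and 4 had a shared rhythm, Ccn5, Tnxb, Tnc and Tnn, against 32.5% of all genes. Without sham CT20 replicates 2 and 3 the set that passed changed. Ccn5, Tnxb and Tnc stayed in it and Tnn did not, in a fit that leaves 1 library at sham CT20. Of 12 protease genes that act on the same matrix, 0 passed in the mean comparison, with a median of -0.04, and 5 had a shared rhythm, against the same share of all genes. Mmp13, a collagenase, had a log2 fold change of -0.26 (adjusted p = 0.110) and a shared peak-to-trough of 0.68 at 17.6 h (adjusted p = 0.0024), and Adamts12, which cleaves Comp, had 0.81 at 2.76 h. Mmp14 had 0.42 at 1.39 h.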

How the data were processed

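Per the labels' protocols, stranded mRNA libraries were sequenced as single reads, and the submitters' processing notes name STAR 2.4.0i and build mm10. The labels name neither the counting program nor its strand setting. The authors deposited raw counts per Ensembl gene and, per the file headers, a gene length column. Of the columns, 30 of 36 name a time 1 h earlier than the label, and the labelled times were used. GENCODE M21 matched 37607 IDs (96.4%). Whether libraries came from separate animals is not stated, and p-values reflect only the spread between libraries, which may be technical.

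Counts were analysed with R 4.3.3 and edgeR 4.0.16 (TMM, filterByExpr, quasi-likelihood test), with 12 group means (24 residual degrees of freedom) or a 24 h cosine per status, and Benjamini-Hochberg adjustment over all 22556 genes at 0.05. The 16461 genes left out held 0.0779% of counts. CPM used TMM library sizes, and log2 CPM a prior count of 2. DESeq2 1.42.0 and its size factors, limma-voom (limma 3.58.1), no filter, a replicate block, column times, single-status fits and left-out libraries were alternatives. The scripts were tested on simulated data.

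The members and lists were chosen with earlier results of these data known. Named genes were the members, the 5 genes most like each by Pearson's r at a mean CPM of at least 1, and per list the called members and up to 4 of smallest p. The result of 1 listed gene is left out.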

Additional observations from a re-analysis of the deposited data

How the results depend on the processing

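The 5 members kept the direction of their log2 fold change between ADX and sham in every alternative run, and no result reversed. Leaving out a library at a time gave -0.59 to -0.51 for Thbs4, -0.28 to -0.23 for Thbs1, -0.11 to -0.07 for Thbs3, 0.02 to 0.08 for Thbs2 and 0.20 to 0.26 for Comp. The number of all genes called was less stable, between 21 and 302, and it was 645 with DESeq2 (158 of the 162 shared), 6 without sham CT20 replicates 2 and 3, and 11 without the 5 libraries of Gh over 50 CPM. The fit without sham CT20 replicates 2 and 3 leaves 1 library at sham CT20. The last fit leaves 1 at sham CT08 and 1 at ADX CT24. Each is assumed to vary like the other groups. Both of these removals, and the exon lengths, were chosen after seeing the data.

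For rhythm in ADX, Thbs2 reached 0.42 (adjusted p = 0.0385) without the 3 muscle-high libraries. Thbs3 passed in the test of any difference between times. Its value there, 0.52, is the range of the 6 group means on the log2 scale and not a fitted peak-to-trough. Without a filter 1411 genes passed in ADX, against 2120, and without a library at a time between 1334 and 2430. For rhythm in sham, Thbs4 had 0.76 (adjusted p = 0.0531) in a fit of sham samples alone, 0.83 (0.0575) without the 5 Gh libraries and 0.19 (0.692) without sham CT20 replicates 2 and 3, and its shared value was then 0.30. Its range over left-out libraries was 0.54 to 0.88. Thbs1 passed with DESeq2 (0.32) and in 11 of 36 fits without a library (0.27 to 0.38), and Thbs3 with DESeq2 (0.35), with the column times (0.35) and in 8 of 36 such fits (0.31 to 0.40). The difference in rhythm passed for 1 gene with DESeq2 and for 0 to 1 without a library, and the change of the ADX effect over time for 4 with DESeq2. The cause of these changes was not tested.

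ADX and sham libraries of the same time and replicate number did not deviate together (mean r of -0.02 over 18 pairs, 3 of them over 0.1). Pairs of other numbers had a mean r of 0.01 over 36 pairs, 11 of them over 0.1. The samples were therefore treated as unpaired. A batch that runs across times by replicate number was examined only by a fit with that number as a block. With the replicate number as a block, 152 genes were called in the mean comparison, Thbs1 passed for rhythm in sham (0.32, adjusted p = 0.0374), and no other call of a member changed. Scaling by DESeq2's size factors moved the median log2 fold change of all genes to -0.003, against 0.001. Thbs3 had 100 to 215 counts per library, the fewest of the family.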
